A study of Mus musculus with 9 samples.

Results

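The expression of 10 adhesion genes was measured in mouse cells sorted as monocytes/macrophages from blood and from the ischemic brain. They are 9 integrin subunit genes (*Itgb2*, *Itgam*, *Itgb1*, *Itga4*, *Itgb7*, *Itga5*, *Itga6*, *Itgav* and *Itgb5*) and *Selplg*, which encodes the selectin ligand PSGL-1. The genes were given as a list of names, with no threshold on their values, but earlier results of these data were known when it was made. All 10 were found by their Ensembl ID among the 53801 genes of the count files, and all 10 passed the filter on low counts in each of the 3 comparisons below. Their counts lay between 21 and 35294 reads per library.

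A blood monocyte reaches a tissue in steps. PSGL-1 on its surface binds selectins on the vessel wall and lets the cell roll, and integrins then bind their ligands and hold the cell, carry it across the wall and later anchor it to matrix. An integrin is a pair of 1 alpha and 1 beta chain, and the beta chain limits which alpha chains can be used. Beta 2 chains (*Itgb2*) are found on leukocytes and bind ICAMs and complement fragments, beta 1 chains (*Itgb1*) bind fibronectin, laminin and VCAM-1, beta 7 chains (*Itgb7*) pair with the alpha 4 chain, and beta 5 chains (*Itgb5*) pair with the alpha V chain (*Itgav*) to bind vitronectin and, through the bridging protein MFG-E8, dying cells.

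RNA was sequenced from CD11c-Ly6G-CD11b+CD45high cells of male C57BL/6J mice aged 9 weeks, with 3 libraries in each of 3 groups. Stroke brain and stroke blood cells were taken on day 5 of stroke by dMCAO, in which the distal branch of the middle cerebral artery and the common carotid artery, both on the left, were closed for good. Sham blood cells came from sham-operated mice, for which no day was given in the sources used here. Each blood library held the cells of 1 mouse and each brain library a pool from 5 mice. The gate did not separate resident microglia with high CD45 from cells that came from the blood. No group comes from uninjured brain, so tissue and injury cannot be told apart in the brain libraries. The gate itself used the protein of 1 of the 10 genes, since CD11b is the product of *Itgam*, and it left out cells with CD11c, the product of *Itgax*.

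The libraries held 18475118 to 22623578 counted reads, so 3 reads equalled 0.133 to 0.162 CPM, a read count scaled to the library total and multiplied by 1000000. The 15 monocyte and macrophage markers summed to 108783 to 137356 CPM in blood and to 53970 to 58994 CPM in brain, and none of the 15 was at 0 in all libraries of a group. Other cells were also represented. The 12 microglia markers, of which none is an integrin gene, summed to 196 to 350 CPM in sham blood, 250 to 282 CPM in stroke blood, and 1752, 2561 and 4860 CPM in brain replicates 1, 2 and 3. All 12 rose from stroke blood to brain, and *Sall1*, *Siglech* and *Slc2a5* were at 0 in every stroke blood library. Of the border macrophage markers, 6 of the 7 tested rose, and without *Pf4*, which platelets also express, the list summed to 42.7 to 66.3 CPM in stroke blood and 240 to 546 CPM in brain. Of the neutrophil markers, 5 of the 8 tested rose and 1 fell, with sums of 644 to 1111 CPM in stroke blood and 1113 to 1756 CPM in brain. In sham blood replicates 1, 2 and 3 that sum was 1016, 1232 and 3296 CPM, so replicate 3 was above every brain library. *S100a8* was at 41.2, 77.5 and 956 CPM there. The 11 platelet markers other than *Pf4* summed to 281 to 388 CPM in stroke blood and 5.01 to 6.25 CPM in brain, where *Gp5* was among the markers at 0, while *Pf4* was at 72.9 to 95.5 CPM and 35.0 to 78.7 CPM. Sham blood replicate 1 stood apart, with a platelet sum without *Pf4* of 17.2 CPM against 461 and 655 CPM in the other 2 sham libraries, and with an erythroid marker sum of 1223 CPM against 30425 and 34182 CPM. Among the brain libraries, replicate 1 had the lowest microglia sum. Some results that rest on sham blood replicate 1 or brain replicate 1 are also given without them. In bulk RNA, fewer cells of a type and less RNA per cell cannot be told apart.

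Levels are given as CPM of the library total, and levels of different genes are compared as CPM per kilobase of exon (RPKM). Fold changes come from edgeR, which rescales libraries by TMM factors (0.902 to 1.01 in blood and 1.06 to 1.09 in brain), so they are somewhat lower for brain against blood than the ratio of CPM means. A differentially expressed gene (DEG) had both an adjusted p below 0.05 and levels that differed more than 2-fold, a log2 fold change beyond 1 in either direction. Errors of fold changes are standard errors (SE). The comparisons share libraries, because the stroke blood, sham blood and stroke brain groups each enter 2 of them, so results that recur between comparisons are not independent.

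The first question was which of these genes differ between cells in the stroke brain and cells in the blood of mice with the same surgery. Of the 10 genes, 2 rose (*Itgb5* and *Itga6*) and 1 fell (*Itga4*) as DEGs, against 21.0% of all 13189 genes tested, 13.1% higher and 7.86% lower. A further 3 passed the adjusted p alone, *Itga5* and *Itgav* with higher and *Itgam* with lower levels in brain, which makes 6 of 10 against 30.6% of all genes, 17.5% higher and 13.1% lower. The median log2 fold change of the 10 genes was 0.38, beside 0.06 for all genes tested. On CPM, 6 genes were higher in every brain library than in every stroke blood library and 3 were lower, against 31.9% and 17.3% of all genes, or 49.2% in either direction. With TMM scaling *Selplg* overlapped and 48.2% of all genes did not, and *Itgb2* overlapped on both scales.

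**Figure D1:**
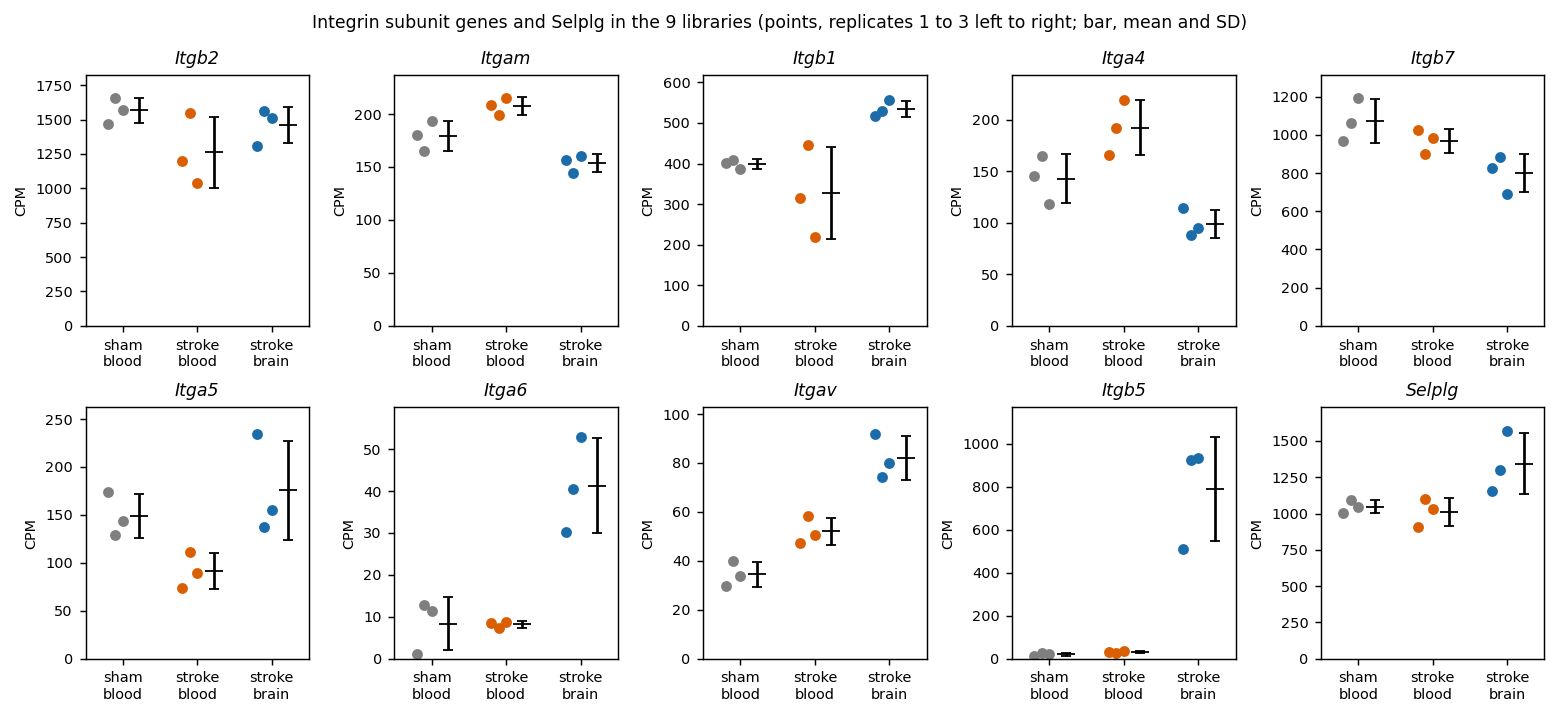
CPM of each gene (y axis, linear from 0, own scale per panel) in the 3 libraries of each group (points, with the mean and SD beside them). Stroke brain points lie far above both blood groups for *Itgb5* and *Itga6* and below both for *Itga4*, *Itgb7* and *Itgam*, while the points of *Itgb2* overlap among the groups.

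**Figure D2:**
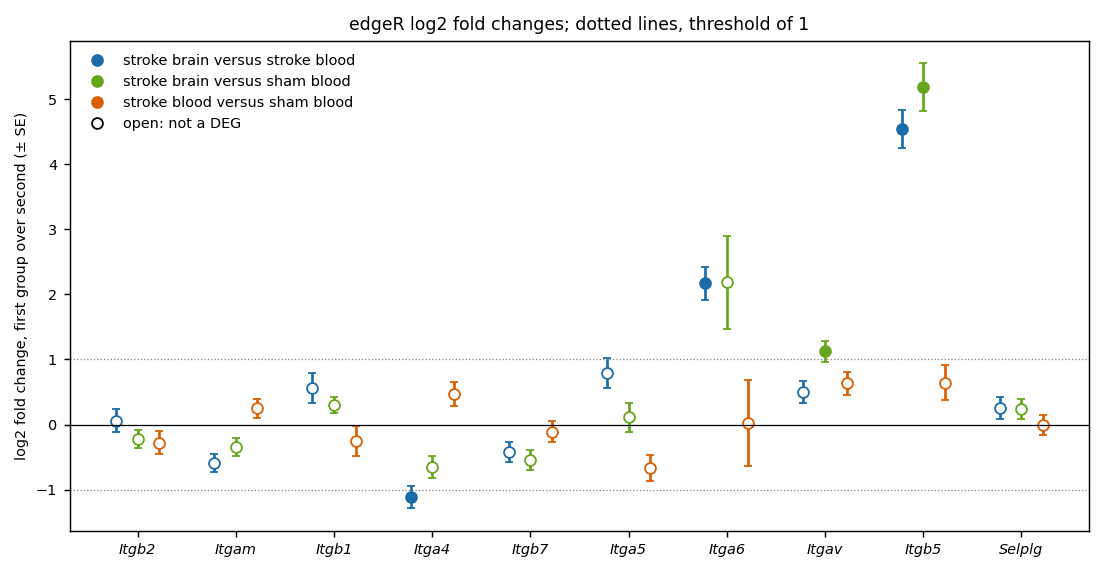
edgeR log2 fold change with its standard error (y axis) for each gene (x axis) in the 3 comparisons (colours), filled where the gene is a DEG. In stroke blood versus sham blood all 10 points are open, with values between -0.67 and 0.64.

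*Itgb5* (chr16:33829665-33949153, plus strand, GRCm38) had the largest fold change of the list. Its end is that of the count files, whereas GENCODE M21, the source of its exon length, ends the gene at base 33949338, and it was the only one of the 10 genes placed differently in the 2 sources. It was measured at 13.1, 26.8 and 20.1 CPM in sham blood, 31.4, 24.2 and 35.3 CPM in stroke blood, and 510, 924 and 935 CPM in stroke brain. Brain replicate 1 was lower than the other brain libraries but far above every blood library. The log2 fold change was 4.55 against stroke blood, a 23.4-fold rise, and 5.19 against sham blood (SE 0.37, adjusted p = 0.000292 by edgeR), a 36.5-fold rise. It stayed a DEG in both comparisons under every alternative run, with log2 values of 4.35 to 4.80 and 4.96 to 5.43. *Itgb5* and the microglia marker sum had the same order over the brain libraries, lowest in replicate 1 and highest in replicate 3, but from replicate 2 to 3 *Itgb5* went from 924 to 935 CPM while the marker sum went from 2561 to 4860 CPM. The border macrophage markers rose in the same libraries, and the part of RNA from either cell type in the *Itgb5* level was not tested.

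*Itgav* (chr2:83724397-83806916, plus strand), the alpha chain that beta 5 pairs with, differed far less. It was at 29.9, 39.9 and 33.7 CPM in sham blood, 47.5, 58.3 and 50.5 CPM in stroke blood, and 92.0, 74.4 and 80.0 CPM in brain. The 3 groups did not overlap, and stroke blood lay between the other 2. Against sham blood *Itgav* rose by a log2 fold change of 1.13 (SE 0.16, adjusted p = 0.00417 by edgeR), and without sham blood replicate 1 and brain replicate 1 the value was 0.96, short of the fold threshold. Against stroke blood the log2 fold change was 0.50 (SE 0.16, adjusted p = 0.0445 by edgeR). That adjusted p was above 0.05 in 10 of 14 alternative fits, with a range of 0.0161 to 0.180. Brain *Itgb5* stood at 222 ± 68.2 RPKM and brain *Itgav* at 7.64 ± 0.839 RPKM (mean ± SD, n = 3), so per exon base the beta chain transcript was the more abundant by far. In sham blood the 2 genes were at 5.63 ± 1.93 and 3.21 ± 0.471 RPKM, and their libraries overlapped. *Itgav* shares 634 exon bases, 5.90% of its own, with *Gm13684* on the other strand, and the strand setting of the counting is not given in the sources used here.

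*Itga6* (chr2:71745616-71858416, plus strand), an alpha chain for laminin, had the lowest level per exon base of the 10 genes in every group. It was at 1.02, 12.8 and 11.3 CPM in sham blood, 8.59, 7.24 and 8.85 CPM in stroke blood, and 30.3, 40.4 and 52.9 CPM in brain. All brain libraries were above all blood libraries. Against stroke blood it rose by a log2 fold change of 2.17 (SE 0.26, adjusted p = 0.00037 by edgeR), a 4.50-fold rise. Against sham blood the log2 fold change was 2.19 with a larger standard error of 0.72 and an edgeR adjusted p of 0.0693. Sham blood replicate 1 held 21 reads of *Itga6*, against 273 and 209 in the other 2 sham libraries. Without it *Itga6* rose by 1.66 on the log2 scale (adjusted p = 0.012 by edgeR). Among the blood libraries the platelet marker sum was also lowest in that one, *Itga6* is expressed in platelets, and in brain *Itga6* was above its blood levels while the platelet sum without *Pf4* was below that of all 6 blood libraries. The part of platelet RNA in the blood levels and of microglial RNA in the brain levels of *Itga6* was not tested.

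**Figure D3:**
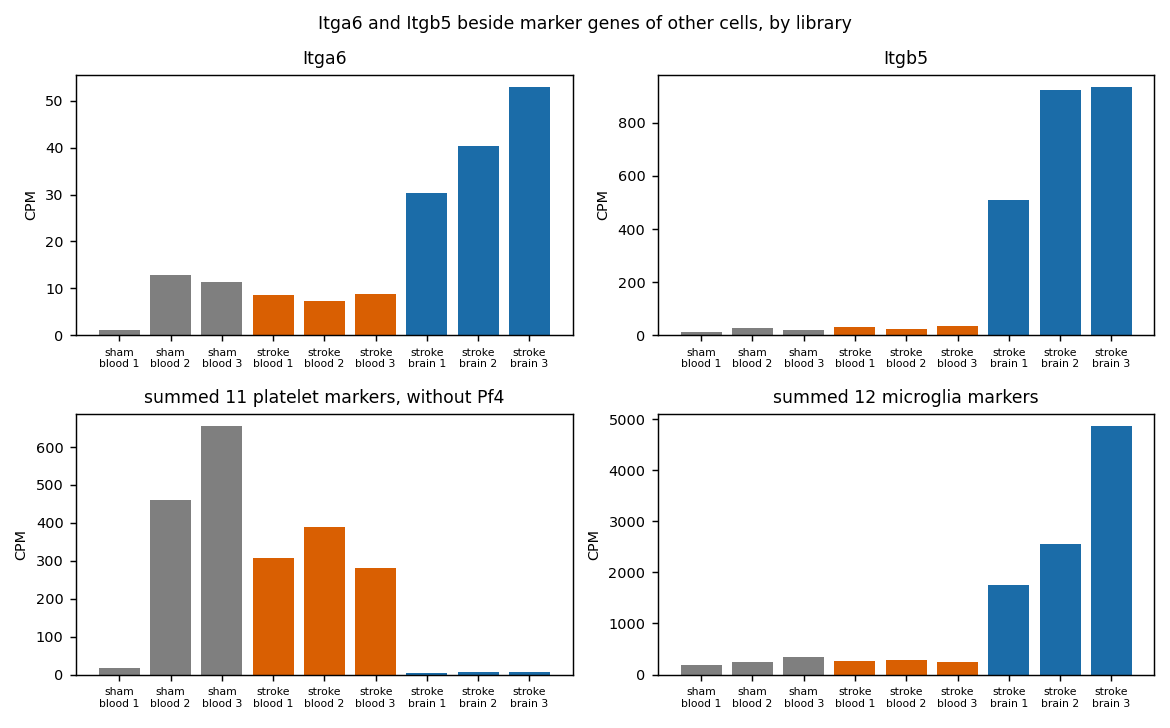
CPM per library (y axis, linear from 0) of *Itga6* and *Itgb5* above the summed CPM of 11 platelet markers (without *Pf4*) and 12 microglia markers, with 1 bar per library in the group colours. Sham blood replicate 1 is low for *Itga6* (1.02 CPM) and for the platelet sum (17.2 CPM), and the microglia sum reaches 4860 CPM in brain replicate 3.

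*Itga4* (chr2:79255426-79333123, plus strand), the alpha chain that binds VCAM-1 with either beta 1 or beta 7, went the other way. It was at 146, 165 and 118 CPM in sham blood, 166, 192 and 219 CPM in stroke blood, and 114, 87.8 and 95.4 CPM in brain. The brain libraries were lowest, and every stroke blood library was above every sham library. Against stroke blood *Itga4* fell by 1.12 on the log2 scale (SE 0.17, adjusted p = 0.00157 by edgeR), to 2.17-fold lower levels. With scaling by library size only, which moved the median of all genes by 0.16, the log2 fold change was -0.96 and the fold threshold was missed. Against sham blood the log2 fold change was -0.65 (SE 0.17, adjusted p = 0.0311 by edgeR), and the adjusted p was above 0.05 in 6 of 15 alternative fits, with a range of 0.00684 to 0.108. *Itga4* shares 1124 exon bases, 8.04% of its own, with *Cerkl* on the other strand.

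*Itga5* (chr15:103344286-103366763, minus strand), the alpha chain of the classical fibronectin receptor with beta 1, was lowest in stroke blood. It was at 174, 129 and 144 CPM in sham blood, 73.9, 112 and 89.0 CPM in stroke blood, and 235, 138 and 155 CPM in brain. Brain overlapped sham blood, and stroke blood lay below both. Against stroke blood the log2 fold change was 0.79 (SE 0.23, adjusted p = 0.0297 by edgeR), with an adjusted p above 0.05 in 6 of 14 alternative fits, with a range of 0.0101 to 0.125. With 1 library left out that log2 fold change was 0.54 to 0.94. Against sham blood it was 0.11 (SE 0.22, adjusted p = 0.759 by edgeR), and without brain replicate 1 it was -0.14.

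The ratio of *Itga4* to *Itga5* within a library was compared because both alpha chains pair with beta 1. Per exon base it averaged -1.57 on the log2 scale in sham blood, -0.42 in stroke blood and -2.30 in brain. The difference was -1.88 for brain against stroke blood, 1.15 for stroke blood against sham blood, and -0.73 for brain against sham blood. No libraries overlapped in any of the 3, which gives an exact two-sided permutation p of 0.1 each, the smallest that 3 against 3 libraries allow. Adjusted over the 15 ratio comparisons made, that p became 0.136, so none of these ratios could pass a threshold of 0.05.

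The stretch upstream of the start site is shown for the gene with the strongest rise, for its alpha partner and for the gene that fell. These are the 250 bases before the RefSeq start (GRCm38.p6, plus strand, 5′ to 3′), with matches to the letters GAGGAA (a core of the myeloid factor PU.1) and GGGCGG (an Sp1 box) on either strand in capitals.
Itgb5, chr16:33829415-33829664: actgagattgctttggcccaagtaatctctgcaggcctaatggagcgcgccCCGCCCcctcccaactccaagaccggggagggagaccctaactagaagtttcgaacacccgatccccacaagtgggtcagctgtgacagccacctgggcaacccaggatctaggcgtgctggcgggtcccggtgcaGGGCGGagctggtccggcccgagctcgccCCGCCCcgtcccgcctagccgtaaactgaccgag
Itgav, chr2:83724147-83724396: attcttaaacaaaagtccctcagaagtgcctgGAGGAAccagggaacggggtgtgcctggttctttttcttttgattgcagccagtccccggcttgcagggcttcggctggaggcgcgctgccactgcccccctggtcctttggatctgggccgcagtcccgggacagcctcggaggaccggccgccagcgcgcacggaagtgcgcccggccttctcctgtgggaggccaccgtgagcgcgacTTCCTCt
Itga4, chr2:79255176-79255425: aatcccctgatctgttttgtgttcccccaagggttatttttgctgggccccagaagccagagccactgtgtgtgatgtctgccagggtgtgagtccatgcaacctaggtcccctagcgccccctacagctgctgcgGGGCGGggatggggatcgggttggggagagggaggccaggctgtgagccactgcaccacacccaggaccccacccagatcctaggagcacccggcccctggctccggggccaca
The *Itgb5* stretch held 3 Sp1 boxes and no PU.1 core, with a GC content of 65.2%, the *Itgav* stretch 2 PU.1 cores and no Sp1 box (64.4% GC), and the *Itga4* stretch 1 Sp1 box and no PU.1 core (64.0% GC). Of 32851 mouse promoters of the same length, 32.7% held an Sp1 box and 23.3% a PU.1 core, and their median GC content was 52.4%. None of the 3 stretches held the AP-1 site TGANTCA, which was found in 6.75% of all promoters. The letters of the core promoter box TATAAA, found in 12.4% of them, were also missing. Such a match is a run of letters, and nothing in these data bears on whether a factor binds there. Promoters of 7 of the 10 genes were matched in the table.

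The beta chain *Itgb2* (chr10:77530252-77565708, plus strand), shared by all CD11 integrins, was the highest of the 10 genes per exon base in every group. It was at 1471, 1656 and 1572 CPM in sham blood, 1200, 1546 and 1037 CPM in stroke blood, and 1309, 1560 and 1513 CPM in brain. The groups overlapped. The log2 fold change was 0.06 against stroke blood (SE 0.18, adjusted p = 0.817 by edgeR) and -0.22 against sham blood (SE 0.14, adjusted p = 0.289 by edgeR), and the sign against stroke blood turned under 3 of the alternatives.

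*Itgam* (chr7:128062640-128118491, plus strand), the alpha chain of CD11b/CD18, or complement receptor 3, had a narrow range. It was at 180, 165 and 194 CPM in sham blood, 209, 199 and 215 CPM in stroke blood, and 157, 144 and 161 CPM in brain. The groups did not overlap, with stroke blood highest and brain lowest. Against stroke blood the log2 fold change was -0.59 (SE 0.14, adjusted p = 0.0119 by edgeR), below the fold threshold, and the adjusted p was 0.0649 without brain replicate 2. Against sham blood it was -0.34 (SE 0.13, adjusted p = 0.109 by edgeR). Cells had been gated on the CD11b protein, so these levels describe transcripts within a positive gate. *Itgam* shares 3450 exon bases, 68.7% of its own, with *Gm49368* on the same strand. Reads that fall on both genes may have been set aside as ambiguous, so the level of *Itgam* per kilobase, 35.7 RPKM in sham blood, is uncertain and could be too low. *Gm49368* itself was given at most 8 reads in a library. If every read of *Itgam* came from its 1574 unshared exon bases, its level would be 114 CPM per kilobase in sham blood, 132 in stroke blood and 97.9 in brain.

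*Itgb1* (chr8:128685654-128733200, plus strand) was at 401, 410 and 385 CPM in sham blood, 315, 446 and 220 CPM in stroke blood, and 517, 530 and 556 CPM in brain. Every brain library was above every blood library, but the spread in stroke blood was wide. The log2 fold change was 0.56 against stroke blood (SE 0.22, adjusted p = 0.0878 by edgeR) and 0.30 against sham blood (SE 0.12, adjusted p = 0.113 by edgeR), so *Itgb1* was not a DEG in either. The first adjusted p was above 0.05 in 12 of 14 alternative fits (0.0167 to 0.214) and the second in 14 of 15 (0.0349 to 0.305).

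*Itgb7* (chr15:102215995-102231944, minus strand), known best as the gut-homing partner of alpha 4 on lymphocytes, was abundant in these myeloid libraries. It was at 966, 1062 and 1194 CPM in sham blood, 1024, 899 and 986 CPM in stroke blood, and 829, 886 and 693 CPM in brain. All brain libraries lay below all blood libraries. The log2 fold change was -0.43 against stroke blood (SE 0.15, adjusted p = 0.0614 by edgeR) and -0.54 against sham blood (SE 0.15, adjusted p = 0.0417 by edgeR). The first adjusted p was above 0.05 in 9 of 14 alternative fits, with a range of 0.0193 to 0.230, and by DESeq2 it was below 0.05. The second was above 0.05 in 7 of 15 alternative fits, with a range of 0.0117 to 0.144. The 14 T and NK cell markers, cells that can also express *Itgb7*, summed to 333 to 1047 CPM in stroke blood and 934 to 1763 CPM in brain. Their part in the *Itgb7* level was not tested.

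*Selplg* (chr5:113818536-113832644, minus strand) was at 1001, 1092 and 1048 CPM in sham blood, 906, 1099 and 1030 CPM in stroke blood, and 1158, 1298 and 1570 CPM in brain. On CPM the brain libraries were the highest 3, but with TMM scaling they overlapped both blood groups. The log2 fold change was 0.25 against stroke blood (SE 0.17, adjusted p = 0.283 by edgeR) and 0.24 against sham blood (SE 0.15, adjusted p = 0.309 by edgeR).

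In the order of levels per exon base, *Itgb5* moved most. In stroke blood the order was *Itgb2* (413 ± 85.1 RPKM, mean ± SD, n = 3), *Itgb7* (350 ± 23.1), *Selplg* (237 ± 23.0), *Itgb1* (80.1 ± 27.8), *Itgam* (41.3 ± 1.68), *Itga5* (18.6 ± 3.87), *Itga4* (13.8 ± 1.90), *Itgb5* (8.53 ± 1.59), *Itgav* (4.85 ± 0.518) and *Itga6* (0.911 ± 0.0961). The place of *Itgam* is uncertain, since over its unshared bases it would stand above *Itgb1* in both blood groups. The libraries of *Itgb2* and *Itgb7* overlapped, as did those of *Itga5* and *Itga4*. In brain *Itgb5* (222 ± 68.2 RPKM) came after *Itgb2*, *Selplg* and *Itgb7*, with libraries that overlapped those of *Itgb7* (290 ± 35.8 RPKM), above *Itgb1* (131 ± 4.86 RPKM). In sham blood the order was that of stroke blood, but *Itgam* overlapped *Itga5*, and *Itgb5* overlapped *Itgav*.

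As a share of the reads per exon base of the 9 integrin beta chain genes, *Itgb5* made up 0.395, 0.726 and 0.538% in sham blood, 1.03, 0.715 and 1.30% in stroke blood, and 14.3, 21.3 and 22.9% in brain. *Itgb7* made up 38.4 ± 2.20% in sham blood, 41.3 ± 6.51% in stroke blood and 25.9 ± 4.05% in brain (mean ± SD, n = 3). *Itgb2* went from 50.9 ± 1.76% to 47.9 ± 4.60% and 42.6 ± 0.708% over the same groups. For *Itgb1* the shares were 9.72 ± 0.779%, 9.19 ± 2.21% and 11.7 ± 1.03%, and stroke blood overlapped the other 2 groups. Shares sum to a whole, so a rise of 1 chain lowers the others.

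**Figure D4:**
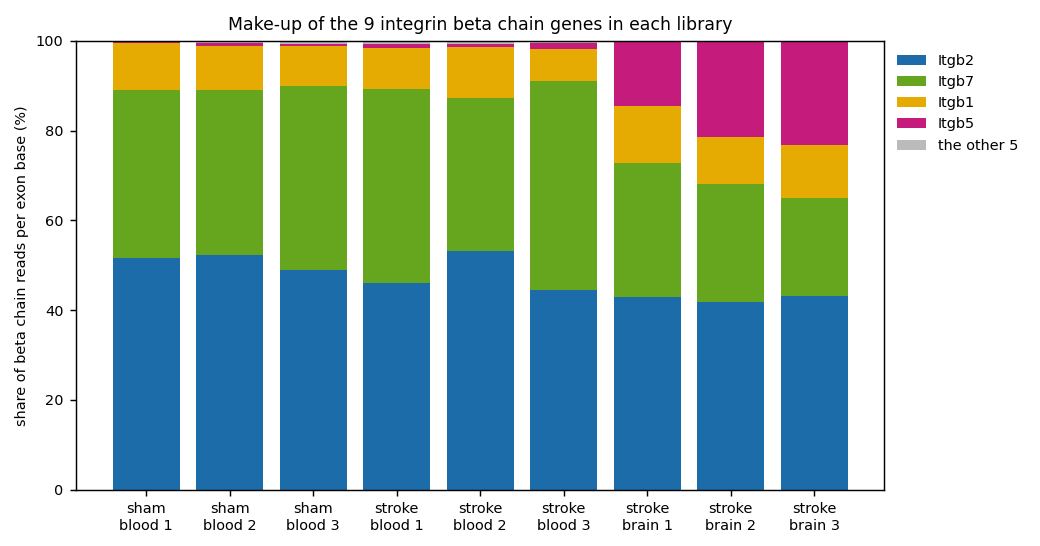
Share in percent of the reads per exon base of 9 integrin beta chain genes (y axis) in each library (x axis), stacked by gene. *Itgb5* is a thin band in the 6 blood libraries and takes 14.3 to 22.9% in the brain libraries.

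Ratios within a library need no scaling between libraries. *Itgb5* over *Itgb1* was 14.9-fold higher in brain than in stroke blood and 29.6-fold higher than in sham blood. *Itgb7* over *Itgb1* was 2.06-fold lower in brain than in stroke blood and 1.80-fold lower than in sham blood. *Itgam* over *Itgb2* was 1.58-fold lower in brain than in stroke blood but overlapped with sham blood. The exact permutation p was 0.1 where libraries did not overlap (0.136 adjusted) and 0.5 for *Itgam* over *Itgb2* against sham blood.

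The second question was whether stroke changed these genes in circulating cells. None of the 10 genes was a DEG by edgeR between stroke blood and sham blood, against 0.00790% of 12664 genes tested, and none passed the adjusted p alone. By DESeq2 none was a DEG either. At an unadjusted p below 0.05 there were 4 genes by edgeR and 4 by DESeq2, namely *Itga4*, *Itga5*, *Itgav* and *Itgb5*, beside 12.5% and 12.9% of all genes. Their log2 fold changes were 0.47 (SE 0.18, adjusted p = 0.356 by edgeR) for *Itga4*, -0.67 (SE 0.20, adjusted p = 0.299 by edgeR) for *Itga5*, 0.63 (SE 0.18, adjusted p = 0.287 by edgeR) for *Itgav* and 0.64 (SE 0.27, adjusted p = 0.39 by edgeR) for *Itgb5*. On CPM, *Itga4*, *Itgav* and *Itgam* were higher in all 3 stroke blood libraries and *Itga5* lower, 4 of 10 genes against 18.7% of all genes tested, 8.23% higher and 10.5% lower. The median log2 fold change was 0.01, beside -0.03 for all genes.

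Against sham blood, 2 of the 10 genes rose in brain as DEGs, *Itgb5* and *Itgav*, beside 9.75% of 13020 genes tested, and none fell by edgeR or DESeq2, beside 3.67%, or 13.4% in either direction. At an unadjusted p below 0.05, 4 were higher and 3 lower by either tool, beside 19.2% and 15.1% of all genes by edgeR and 36.0% in either direction by DESeq2. By the adjusted p alone, 2 were higher, beside 12.1% of all genes, and 2 lower, beside 7.68%, or 19.8% in either direction. On CPM, 5 were higher and 3 lower without overlap, beside 27.4% and 14.2% of all genes, or 41.7% in either direction. With TMM scaling *Selplg* overlapped, *Itgb2* was lower without overlap, and 41.2% of all genes did not overlap. The median log2 fold change was 0.17, beside 0.01 for all genes.

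Among the other 18 integrin subunit genes, 11 passed the filter in brain against stroke blood. Of these 3 rose and 3 fell as DEGs, beside 13.1% and 7.86% of all genes. *Itgax*, the alpha chain of CD11c/CD18, was at 19.4, 11.5 and 11.01 CPM in stroke blood and 141, 78.9 and 85.6 CPM in brain, a log2 fold change of 2.71 (SE 0.30, adjusted p = 0.000284 by edgeR). The gate left out cells with CD11c protein, and the transcript was measured in every library. Dendritic cells use CD11c, and 5 of their 6 markers that are not integrin genes rose, with sums of 88.9 to 219 CPM in stroke blood and 663 to 879 CPM in brain, and their part in *Itgax* was not tested. *Itga9*, a beta 1 partner for tenascin and osteopontin, was at 0, 0.325 and 0.0540 CPM in stroke blood and 9.22, 10.7 and 18.6 CPM in brain (log2 fold change 6.41, adjusted p = 0.00037 by edgeR). Against sham blood, with at most 3 reads per library, it was at least 85.6-fold higher.

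*Itgb2l* averaged 3.90 CPM in brain and 0.180 CPM in stroke blood (log2 fold change 4.29, adjusted p = 0.0191 by edgeR). It is similar to *Itgb2*, and whether reads of *Itgb2* were counted for it was not tested. Stroke blood replicates 1 and 2 held 24876 and 33328 reads of *Itgb2* and 0 of *Itgb2l*. Replicate 3 held 19215 and 10. Of the 8 neutrophil markers tested 5 rose and 1 fell from stroke blood to brain, and the part of neutrophil RNA in *Itgb2l* was not tested. Of the genes that fell, *Itga2b*, the platelet alpha chain, went from 62.1 to 0.864 CPM (log2 fold change -6.33, adjusted p = 0.00035 by edgeR) and *Itgb3*, its beta partner, by -1.88 on the same scale. *Itga1*, a collagen receptor chain, went from 28.3 to 12.8 CPM (log2 fold change -1.31, adjusted p = 0.0105 by edgeR). Against sham blood 4 of the 12 subunits tested rose (*Itgax*, *Itga9*, *Itgb2l* and *Itgae*, the last from 0.349 to 2.08 CPM) and 2 fell (*Itga1* and *Itga2b*). Of all genes 9.75% rose and 3.67% fell there. Between stroke blood and sham blood none of 7 was a DEG by edgeR or DESeq2. At an unadjusted p below 0.05 there were 0 and 1, beside 12.5% and 12.9% of all genes. *Itgal*, the alpha chain of LFA-1 and a gene outside the 10, made up 47.2% of the alpha chain reads per exon base in sham blood, 52.9% in stroke blood and 42.8% in brain. These shares were the largest of the 18 alpha chains over all exon bases, but *Itgal* stood at 89.5, 109 and 82.8 RPKM, below the levels that *Itgam* would have over its unshared bases.

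**Figure D5:**
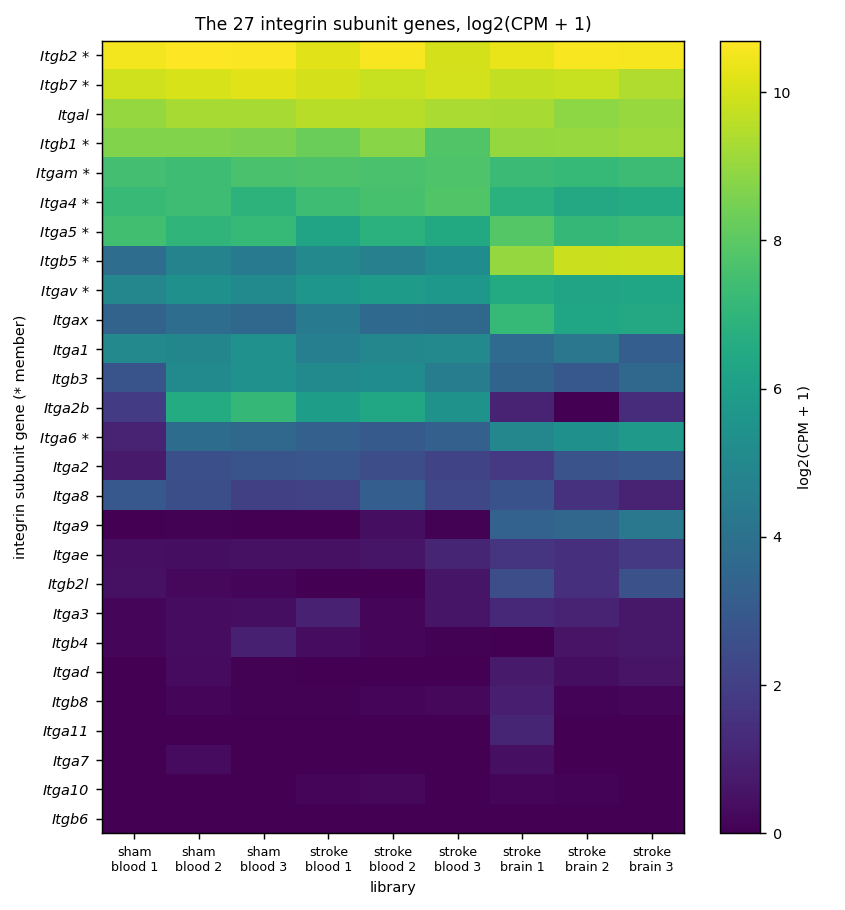
Level of the 27 integrin subunit genes (rows, ordered by mean level, a star marking the 9 of the list) in the 9 libraries (columns) as log2(CPM + 1). *Itgb5*, *Itgax*, *Itga6* and *Itga9* are brighter in the 3 brain columns, and *Itga2b* is dark there and in sham blood replicate 1.

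The genes whose pattern over the 9 libraries lay nearest to that of *Itgb5* among 7930 genes compared were *Cebpb*, *Nek6* and *Rab3il1*. Likeness was the root mean square difference of log2 CPM after centring each gene on its own mean, and it was 0.45, 0.50 and 0.61 for the 3 genes, beside a standard deviation of 2.47 for *Itgb5* itself. *Cebpb*, for example, averaged 26.6 CPM in sham blood, 35.0 CPM in stroke blood and 1323 CPM in brain. For *Itga4* the nearest were *Oas3*, *9130401M01Rik* and *Csk*, each at 0.15, beside a standard deviation of 0.53.

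Signals inside the cell can switch integrins on to bind their ligands. Among 28 activators and inhibitors, 26 were tested in brain against stroke blood. Of these 5 rose and 2 fell as DEGs, beside 13.1% and 7.86% of all genes, with a median log2 fold change of -0.09. Among the core parts of the switch, *Tln1* (talin) had a log2 fold change of -0.63 (adjusted p = 0.0768 by edgeR) and *Fermt3* (kindlin-3) of 0.13 (adjusted p = 0.576 by edgeR), and *Cd47*, an integrin-associated protein, of -0.27 (adjusted p = 0.196 by edgeR). At a mean log2 CPM above 3, the largest changes were those of *Slc3a2*, a beta chain-binding amino acid transporter subunit (log2 fold change 2.35), the adaptors *Skap1* (1.91) and *Dok2* (1.81), and *Apbb1ip*, which encodes the talin recruiter RIAM (-1.78). All 4 had an edgeR adjusted p of 0.00389 or less. *Skap1* is also a T cell adaptor. Of the 14 T and NK cell markers 5 rose as DEGs and 0 fell, but their sums overlapped, as given above. Their part in *Skap1* was not tested. The other 2 genes that rose were the low *Tln2* (4.42) and *Cyth1* (1.17), and *Rasgrp2* (-1.34) also fell.

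Of 32 adhesion complex linkers and kinases 28 were tested, and 4 rose and 1 fell, beside 13.1% and 7.86% of all genes. Their median log2 fold change was 0.14. Of the parvins, which link integrins to actin, *Parvg* rose by 1.48 on the log2 scale (adjusted p = 0.000406 by edgeR) and *Parvb* fell by 1.61 (adjusted p = 0.0078 by edgeR). *Vav3*, an exchange factor for small GTPases, rose by 1.23 (adjusted p = 0.00249 by edgeR). The other 2 genes that rose were the focal adhesion kinase *Ptk2* (1.64) and the actin linker *Tns1* (3.86), both at lower levels.

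The 30 integrin ligands and counter-receptors had 19 members tested, of which 10 rose and 2 fell, beside 13.1% and 7.86% of all genes. Their median log2 fold change was 1.42, also with genes at 0 in blood set to their lower bound. *Spp1* (osteopontin, a ligand of alpha V, alpha 4 and alpha 9 chains) was at 1.11, 1.72 and 0.648 CPM in stroke blood and 3835, 1540 and 1768 CPM in brain (log2 fold change 10.83, adjusted p = 4.8e-06 by edgeR). *Thbs1* (thrombospondin-1) rose by 5.12 on that scale, *Tgm2* (transglutaminase 2, an integrin co-receptor) by 5.06 and the tetraspanin *Cd81* by 3.72. *Vcam1*, the counter-receptor of alpha 4 integrins, was at 0 in all stroke blood libraries and at 7.36 to 12.5 CPM in brain, at least 63.0-fold higher against a floor of 3 reads per library. In contrast *Fn1* (fibronectin) fell by 1.59 (adjusted p = 0.00358 by edgeR), from 2433 to 900 CPM, and *Icam2* fell by 1.01. *Icam1*, the ligand of beta 2 integrins, had a log2 fold change of 0.87 (adjusted p = 0.00814 by edgeR), below the fold threshold, and *Mfge8*, the bridge to beta 5 integrin, of -0.42 (adjusted p = 0.187 by edgeR). Microglia, border macrophage, neutrophil and dendritic cell markers rose in the same libraries, as given above, and their part in the ligand genes was not tested.

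Of 31 selectin and PSGL-1 glycosylation genes 29 were tested, and 6 rose and 4 fell, beside 13.1% and 7.86% of all genes. Their median log2 fold change was 0.07. Among the genes for the sugars of PSGL-1, at a mean log2 CPM above 3, the sialyltransferase *St3gal6* rose by 3.31 and *Galnt1*, which starts O-glycans, by 2.11, whereas *Slc35c1*, the GDP-fucose transporter of the Golgi, fell by 1.45 and *C1galt1c1*, the chaperone of core 1 synthase, by 1.43. All 4 had an edgeR adjusted p of 0.00271 or less. The fucosyltransferase *Fut7*, needed for selectin binding, also fell, by 1.02. Between stroke blood and sham blood edgeR called none of the tested genes of these lists, which numbered 25 activators and inhibitors, 27 linkers and kinases, 16 ligands and 28 selectin genes. At an unadjusted p below 0.05 edgeR gave 4, 3, 2 and 6 of them, beside 12.5% of all genes. DESeq2 gave 6, 5, 2 and 6, beside 12.9% of all genes, and called *Thbs1* as lower in stroke blood.

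Against sham blood 9.75% of all genes rose in brain and 3.67% fell, as given above. In that comparison 5 of 26 tested activators and inhibitors rose (*Slc3a2*, *Dok2*, *Tln2*, *Cyth3* and *Rapgef1*), and 1 of 28 linkers and kinases rose (*Tns1*). Of 19 ligands, 8 rose and 1 fell (*Fn1*), and of 29 selectin genes 3 rose (*St3gal6*, *Galnt1* and *Chst2*) and 4 fell, among them *Slc35c1*, *C1galt1c1* and *Fut7*. The median log2 fold change of the ligands was 1.29. *Ptprc*, which encodes the CD45 of the gate, was not a DEG, with log2 fold changes of -0.44 against stroke blood (adjusted p = 0.0919 by edgeR) and -0.31 against sham blood (adjusted p = 0.17 by edgeR), and *Ly6g*, used to leave out neutrophils, was at no more than 0.756 CPM in any library.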

How the data were processed

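RNA of sorted mouse cells was read as 75-base reads in 9 libraries, 3 per group. Per the labels and the study's methods, the authors used HISAT2 to map reads to the GRCm38 genome and HTSeq to count them by Ensembl gene, and the deposited values are raw counts. Versions, annotation release and strand setting are not given in the sources used here. Symbols, exon lengths and overlaps were taken from GENCODE M21 and promoters from RefSeq. Counts were tested with edgeR 4.0.16 (R 4.3.3) by the quasi-likelihood test with TMM, filterByExpr and Benjamini-Hochberg adjustment over all genes tested, in fits of 2 groups each, with the standard error taken as the log2 fold change over the square root of F. DESeq2, the tool of the study, was an alternative, run in version 1.42.0 on the same genes. The fitting was tested on simulated data. Replicates within a group differed beyond sampling noise, and p-values measure the spread between libraries, which for brain are pools.

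The 10 genes, the gene lists and the tests were chosen with earlier results of these data known. Text names all 10 genes, other integrin subunits called in a comparison, up to 4 called genes per pathway list with the largest change in brain against stroke blood (mean log2 CPM above 3, groups not overlapping), a fixed set (*Icam1*, *Vcam1*, *Fn1*, *Spp1*, *Tln1*, *Fermt3*, *Cd47*, *Mfge8*), the gate genes and the 3 nearest genes of *Itgb5* and *Itga4*. *Itgal* and called list genes outside this rule (*Tln2*, *Cyth1*, *Cyth3*, *Rapgef1*, *Rasgrp2*, *Ptk2*, *Tns1*, *Icam2*, *Fut7*, *Chst2*) were singled out after their values were seen. Of 264 listed symbols 1 was not matched, and some listed genes are not reported here. Alternatives were RLE, upper-quartile and library-size scaling, other filters and thresholds, all 9 libraries in 1 fit, a replicate block and leaving out each library.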

Additional observations from a re-analysis of the deposited data

How the results depend on the processing

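Of the 10 genes, *Itgb5* kept its calls against both blood groups under every alternative. *Itga6* kept its call against stroke blood, with log2 fold changes of 1.95 to 2.36. All results rest on 3 libraries a group, and the adjusted p-values between 0.0119 and 0.0445 crossed 0.05 when single libraries were left out. Scaling by library size only moved the median log2 fold change of all genes by 0.16 (brain against stroke blood) and 0.12 (brain against sham blood), and upper-quartile scaling by -0.15 in the former. The cause of the changes below was not tested.

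All DEGs in brain against stroke blood numbered 2771, and 1793 at an adjusted p below 0.01. In brain against sham blood they numbered 1748, 792 at that threshold, and 1146 to 1883 with 1 library left out, the lowest without sham blood replicate 3. In stroke blood against sham blood edgeR gave 1 DEG (1581 genes at an unadjusted p below 0.05), 0 at an adjusted p below 0.01, 114 by DESeq2, 160 with no filter on low counts, and 0 to 16 with 1 library left out, the highest without sham blood replicate 1. With no fold threshold, 6 of the 10 genes passed in brain against stroke blood and 4 in brain against sham blood.

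The sign turned for small differences. *Itgb2* in brain against stroke blood (0.06) was -0.084 with upper-quartile scaling and -0.072 to 0.17 with 1 library left out. *Selplg* in stroke blood against sham blood (-0.01) was 0.020 in 1 fit of all 9 libraries, 0.012 with a mean of at least 50 counts, 0.061 with upper-quartile scaling and -0.089 to 0.051 with 1 library left out. *Itga6* in that comparison (0.02) was -0.028 with library size only, -0.0062 with no filter, and -0.51 to 0.45 with 1 library left out, the lowest without sham blood replicate 1. *Itga5* in brain against sham blood (0.11) was -0.14 to 0.25 with 1 library left out, and -0.0036 without sham blood 1 and brain 1, an alternative added after seeing the data. The log2 ratios in stroke blood against sham blood ranged over -0.069 to 0.51 for *Itgb7* over *Itgb1* and -0.11 to 0.11 for *Itgb1* over *Itgb2* with 1 library left out.

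*Itga6* in brain against sham blood became a DEG in 1 fit of all 9 libraries (adjusted p = 0.0318 by edgeR), with no filter on low counts (0.0293), without sham blood replicate 1 (0.012), and without sham blood 1 and brain 1 (0.00191). Same-numbered libraries deviated together no more than others (correlations of -0.07 to 0.07 and -0.09 to 0.12), which with 3 libraries a group cannot exclude pairing. With a replicate block *Itga6* was also a DEG there (log2 fold change 2.62, adjusted p = 0.0403 by edgeR), the adjusted p of *Itga5* and *Itgav* in brain against stroke blood was 0.0555 and 0.0945, and that of *Itga4* and *Itgb7* in brain against sham blood was 0.0556 and 0.0828, while no other call changed. Shares of beta chain reads from raw counts or by the longest coding transcript, both added after seeing the data, gave *Itgb5* 21.6% and 20.2% in brain, beside 19.5%.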
